A study of Homo sapiens with 30 samples.

Results

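Most autosomal H3K27me3 peaks of control HEK293T cells lay in a small number of megabase blocks. Chromosomes 1 to 22 of hg19 were divided into 2897 bins of 1 Mb from the start of each chromosome, and the 232 bins (8.01%) that held 100 or more peak starts in the H3K27me3 list of the control cells were kept as dense blocks. These blocks held 49065 of the 73667 autosomal control peaks (66.6%, Wilson 95% interval 66.3 to 66.9%, which covers counting error only), and 70.9% of the autosomal base pairs under a control peak. Of the whole list of 102921 control peaks, which also has peaks off the autosomes, they held 47.7%. The median block had 189 peak starts, against 2 over all autosomal bins, and 970 bins (33.5%) had none. Since the blocks were chosen by the control peak starts, these values are a description of the selection. Values below on H3K27me3 control peaks, among them their width, strength, place and cover of genes, come from the same list that chose the blocks. The other values come from lists, sequence or annotation that the selection did not use, unless stated.

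H3K27me3 is trimethylation of lysine 27 of histone H3. It is placed by Polycomb repressive complex 2 and is found at genes that are kept silent, either as a short peak at a promoter or as a broad domain that spans a silent gene and its surroundings. Broad domains are known from genes that are active in other tissues than the one studied, among them genes of neurons. H3K9me3, the other mark profiled here, is the hallmark of constitutive heterochromatin and is known for its presence at repeats and at clusters of zinc finger genes.

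The peaks come from ChIP-seq of HEK293T, a human embryonic kidney cell line that expresses the large T antigen of SV40. The cells had received, for 48 hours, an antisense oligonucleotide (ASO), a short DNA-like molecule that lowers a target RNA, and no group was left untransfected. H3K27me3 was profiled with a negative control ASO (NC), with an ASO to the long noncoding RNA LINC00641 (ΔLINC00641) and with an ASO to SETD5-AS1 (ΔSETD5-AS1), and H3K9me3 with NC and with a mix of ASOs to LINC00662 (ΔLINC00662). Each of these had 3 ChIP and 3 input replicates, which gave 30 samples in 10 groups, and the authors called 1 peak list for each ChIP group on its merged replicates. No list carries a replicate error, so no test between groups was possible, and all comparisons are between pooled lists of 1 cell line. The amounts of the targeted RNAs were not analysed here.

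The depth of the lists differed. The lowest background that MACS2 used in a list, called the genome-wide level here and given as fragments per base, was 3.85 for H3K27me3 NC, 3.78 for ΔLINC00641, 4.43 for ΔSETD5-AS1, 4.29 for H3K9me3 NC and 3.50 for ΔLINC00662. The median summit in a block held 18 fragments in the NC list, so a single weak peak is imprecise while the count of a block is less so.

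To show what lies under the strongest peaks of the 3 densest blocks, 150 bases centred on the summit of the NC peak with the largest −log10 q were read from the GRCh37 sequence, whose chromosomes have the lengths of hg19, on the plus strand and with each CpG in capitals. The block with the most starts, chr7:153000001-154000000, had its strongest peak at chr7:153990267-153994374, in an intron of DPP6, which encodes an auxiliary subunit of potassium channels. The block next in order, chr14:98000001-99000000, had it at chr14:98694680-98698287, outside any annotated gene and 1040662 bp from the start of BCL11B, the nearest protein-coding gene. In chr5:9000001-10000000 it was chr5:9544345-9546099, at SEMA5A, which encodes a semaphorin of axon guidance. Its summit lay 1045 bp into the gene, in an intron, while the peak reached to within 1 kb of the start site.
DPP6 intron, chr7:153991871-153992020: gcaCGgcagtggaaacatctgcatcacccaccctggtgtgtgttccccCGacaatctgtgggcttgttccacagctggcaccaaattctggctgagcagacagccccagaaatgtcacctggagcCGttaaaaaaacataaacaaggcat
Intergenic, chr14:98697797-98697946: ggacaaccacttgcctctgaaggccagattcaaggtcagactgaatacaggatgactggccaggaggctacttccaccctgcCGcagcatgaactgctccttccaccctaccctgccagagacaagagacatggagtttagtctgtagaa
SEMA5A intron, chr5:9545067-9545216: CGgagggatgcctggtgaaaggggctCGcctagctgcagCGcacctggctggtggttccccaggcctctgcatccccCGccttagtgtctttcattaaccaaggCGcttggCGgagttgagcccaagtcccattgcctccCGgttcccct

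These 3 windows held 3, 1 and 7 CpGs. Over all NC peaks of the blocks, the same 150 bases around the summit had a median of 1 CpG and a median GC content of 48.0%, and 76.3% of windows held at least 1 CpG. In the other autosomal bins the median GC content under NC summits was also 48.0%, and 77.3% of windows held a CpG. CpG-rich windows, with 5 or more, were 9.93% of those in blocks and 13.7% of those elsewhere. At the SEMA5A peak, the fold enrichment over input was 6.67 in NC (61 fragments), 9.21 upon ΔLINC00641 (96 fragments) and 4.45 upon ΔSETD5-AS1 (57 fragments). In the DPP6 intron it was 7.93, 4.72 and 4.09, and at the chromosome 14 peak 8.45, 4.36 and 5.13. All 3 peaks were thus present in each of the 3 lists, and the NC list, which had chosen the peaks, had the highest value at 2 of them.

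The blocks ranged from 100 to 420 NC starts. Of the 232 blocks, 78 held 100 to 149 starts, 44 held 150 to 199, 62 held 200 to 299 and 48 held 300 or more. The number of blocks depended on what counts as a peak, with 141 bins reaching 100 after peaks within 1 kb were merged and 41 when a −log10 q of 5 was required. NC peaks covered a median of 14.3% of a block, from 4.84% in chr13:102000001-103000000 to 55.2% in chr1:4000001-5000000. In the other bins the median was 0.107%. Just inside the limit lay chr13:102000001-103000000 (100 starts, FGF14), chr16:49000001-50000000 (100 starts, ZNF423) and chr20:58000001-59000000 (101 starts, PHACTR3). Just outside, with 99 starts each, lay chr11:21000001-22000000 (NELL1), chr20:17000001-18000000 (PCSK2) and chr19:57000001-58000000 (ZIM2), the gene given being the longest that overlaps the bin. The X chromosome, which the selection left out, had 99 of 156 bins (63.5%) with 100 or more starts and a median of 192.

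Every autosome had at least 1 block, but their number was uneven. Chromosome 5 held 36 blocks in 181 bins (19.9%), 16 on the short and 20 on the long arm, and these took 86.2% of its NC peaks. Chromosome 16 had 17 blocks in 91 bins (18.7%), chromosome 8 had 21 in 147 (14.3%) and chromosome 2 had 29 in 244 (11.9%). At the low end, chromosome 6 had 3 blocks, and chromosomes 13, 18 and 21 had 1 each, which contained FGF14, CELF4 and DSCAM as their longest genes.

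**Figure D1:**
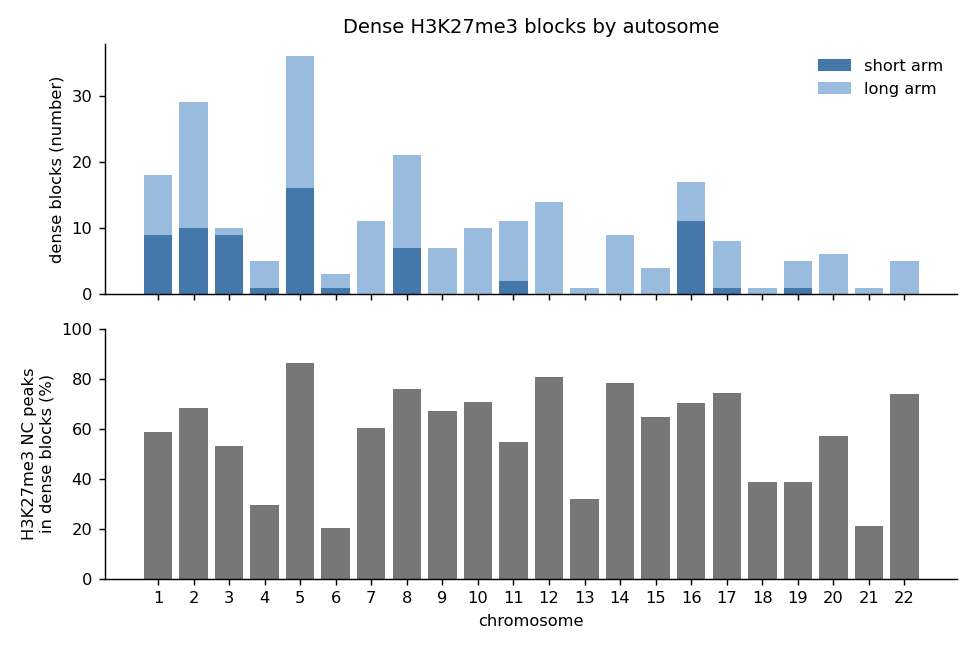
Number of dense blocks on each autosome (upper panel, bars split into short and long arm) and the share of the chromosome's H3K27me3 NC peaks that lie in them (lower panel, %). Chromosome 5 has the most blocks, 36, with 86.2% of its peaks in them, while chromosome 6 has 3 blocks with 20.3%.

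Blocks lay next to each other. A neighbouring block was present for 185 of the 232 (79.7%), and the blocks formed 105 runs, of which 47 were single blocks and 26 had 3 or more and held 121 blocks together. The longest run, chr5:2000001-14000000, spanned 12 blocks with 3661 NC starts, 23 protein-coding genes and between 122 and 401 starts per block. It holds the homeobox genes IRX1 and IRX2, the adenylyl cyclase gene ADCY2, SEMA5A and CTNND2. Runs of 8 blocks were chr5:160000001-168000000 with 2390 starts and chr8:126000001-134000000 with 2176. Runs of 6 blocks were found on chromosomes 2 (2 runs), 5, 8, 10 and 12.

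Blocks were often toward chromosome ends. The median block lay 19.1 Mb from the nearer end, against 36.0 Mb for the other bins with at least 0.5 Mb of known sequence. Of the blocks, 53.0% lay within 20 Mb of an end and 29.7% within 10 Mb, against 29.1% and 14.6% of all other bins. Within 5 Mb the shares were 11.6% and 7.92%. Closest to an end were chr4:190000001-191000000 and chr14:106000001-107000000, with centres 0.654 and 0.850 Mb from it. No first or last bin of a chromosome was a block, but last bins are shorter than 1 Mb and could less easily reach the limit.

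Peak numbers beside the blocks were lower, which for NC is in part set by the limit of 100 starts. In the 198 bins directly beside a block, the median number of NC starts was 14, with 90 bins at 10 or fewer and 91 (46.0%) at 20 or more. In the bins at a distance of 2 it was 5, and at 6 or more it was 1. The knockdown lists, which did not enter the selection, fell in the same way, with medians of 150 in blocks, 12 beside them and 4 at a distance of 2 in ΔLINC00641, and 173, 17.5 and 5 in ΔSETD5-AS1. Gene content changed at the edge as well. The median number of protein-coding start sites was 2 in a block, 7.5 beside it and 4 at a distance of 6 or more.

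**Figure D2:**
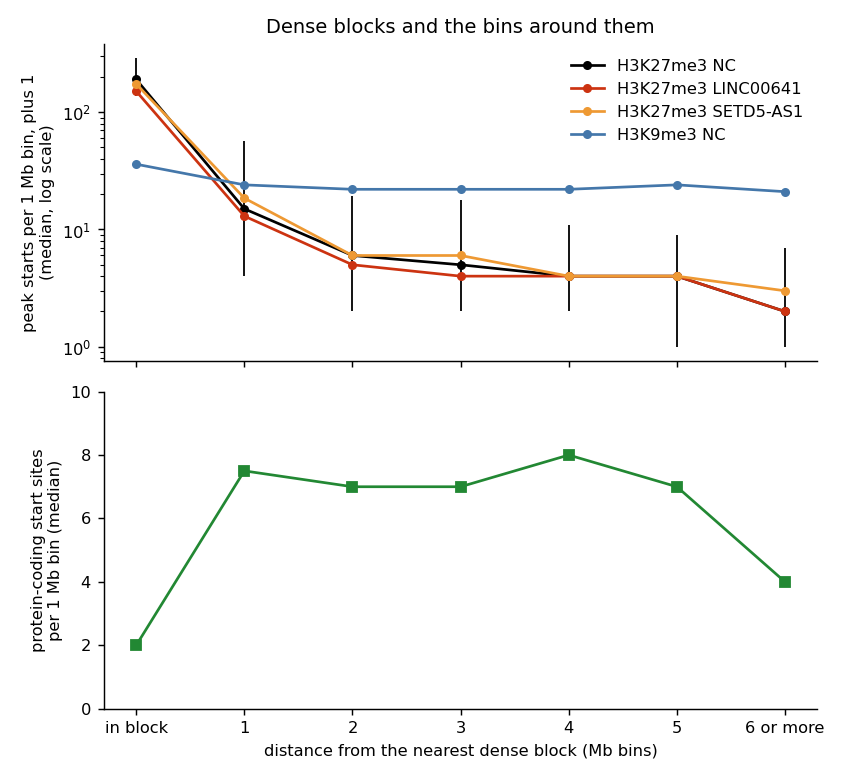
Median peak starts per 1 Mb bin plus 1 (upper panel, log scale) in dense blocks and in bins at a distance of 1 to 5 or of 6 and more bins from one, for 3 H3K27me3 lists and H3K9me3 NC. Vertical lines are the quartiles of the NC list, and the lower panel gives the median number of protein-coding start sites, which is 2 in blocks and 7.5 beside them.

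Blocks were poor in genes at an ordinary GC content. Their median GC content was 40.7% (35.5 to 50.8%), against 40.2% in the other bins, and 126 of 232 blocks (54.3%) lay above the median of all bins, as did 49.6% of the others. The median number of protein-coding start sites was 2 in blocks and 5 in the other bins. Only 48 blocks (20.7%) had more than the median of all bins, which is 5, against 45.2% of the others. Protein-coding genes covered a median of 33.3% of a block and 50.8% of another bin, and the median number of lncRNA genes was 5 and 6. The observed over expected frequency of CpG was 0.197 in the median block and 0.214 in the median other bin.

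The GC content of all bins and the density of genes are known to go together, so both were used to divide the bins. By GC content in 5 equal groups from low to high, blocks made up 3.34%, 12.6%, 8.36%, 12.4% and 6.31% of bins, with no steady order. By the number of protein-coding start sites, blocks were 13.8% of the 340 bins with none, 13.6% of the 778 bins with 1 to 3, 6.90% of those with 4 to 7, 2.88% of those with 8 to 15 and 4.52% of those with 16 to 67. In each of the 5 GC groups the median number of start sites was lower in blocks than in other bins, with 0.5 against 1 at the lowest GC content and 5 against 14 at the highest. Genes of at least 500 kb overlapped 64 blocks (27.6%), against 19.2% of the other bins. For genes of at least 250 kb the shares were 50.9% and 46.0%, and for at least 100 kb they were 73.7% and 80.4%, so the order turned with the length. No protein-coding start site was found in 47 blocks (20.3%), against 11.9% of the other bins.

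**Figure D3:**
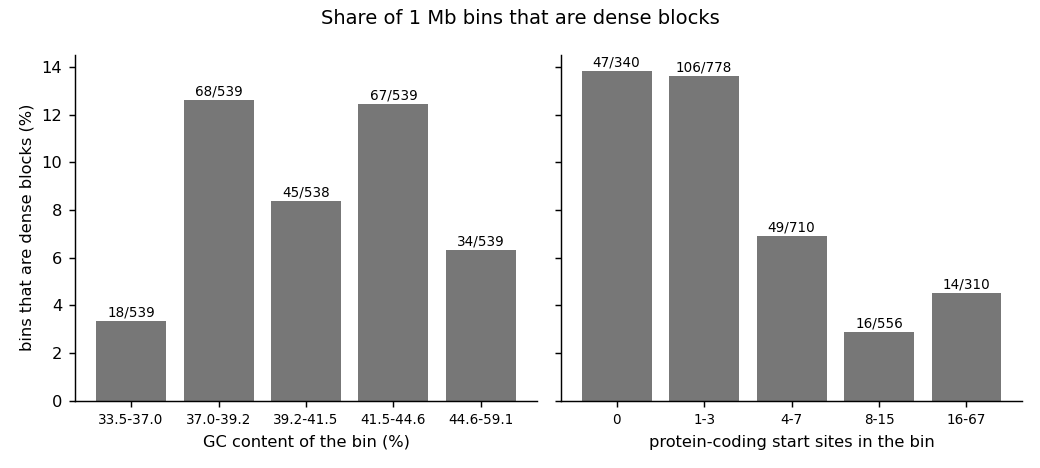
Share of 1 Mb bins that are dense blocks (%), for bins divided by GC content (left) and by the number of protein-coding start sites (right). Numbers over the bars are blocks over bins, and the share falls from 13.8% in bins with no start site to 2.88% in bins with 8 to 15.

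Most of the 10 densest blocks lay over long genes, several of them known for roles in neurons, or in intervals without protein-coding genes. DPP6 (chr7:153445218-154685995, 1241 kb), whose start lies in the block with 420 starts, held 463 NC peaks that covered 52.0% of its length. CTNND2, which encodes the catenin delta-2 of neuronal junctions, lies across chr5:11000001-12000000 (381 starts), and 365 peaks covered 29.4% of its 933 kb. TENM2, the gene of a teneurin of synaptic adhesion, across chr5:166000001-167000000 (396 starts), held 523 peaks over 35.2% of 1285 kb. The block chr5:9000001-10000000 (401 starts) holds SEMA5A, with 199 peaks over 30.8% of its length, and the taste receptor gene TAS2R1 with 32 peaks over 32.7%.

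In chr8:139000001-140000000 (382 starts), FAM135B had 44.3% of its length under peaks and the collagen gene COL22A1 44.2%. The block chr9:122000001-123000000 (368 starts) holds the start of BRINP1, a gene of the nervous system, with 69 peaks over 20.5%. In chr5:7000001-8000000 (371 starts), ADCY2 was covered for 41.2% by 190 peaks, and the genes after it differed. CFAP90, a cilia gene, had 3 peaks over 12.5% of its length, and MTRR, which encodes a housekeeping enzyme of methionine metabolism, had none in any of the 5 lists. MTRR thus lay free of peaks in a bin where peaks covered 33.4% of the sequence.

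The other 3 of the 10 densest blocks had no protein-coding start site. They were chr14:98000001-99000000 (402 starts), chr10:132000001-133000000 (378 starts), which the gene TCERG1L enters, and chr16:6000001-7000000 (375 starts), which lies wholly within RBFOX1, the gene of a neuronal splicing factor. RBFOX1 was the gene with the most base pairs under NC peaks of those that start in a block. Its 951 peaks covered 853.4 kb, 34.5% of its 2474 kb. It was picked out after its value was seen, as were the genes that followed it and DPP6 and TENM2 in that order, ASIC2 (422.3 kb), OPCML (315.2 kb), NTM (285.2 kb) and PTPRT (281.6 kb). ASIC2 encodes a proton-gated channel, OPCML and NTM encode cell adhesion proteins of neurons, and PTPRT encodes a receptor phosphatase.

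Genes of neuronal signalling had a larger share in blocks than protein-coding genes in general. Of the 174 genes listed by name as ion channels or neurotransmitter receptors, 20 (11.5%) started in a block, against 1016 of all 19229 protein-coding genes (5.28%). Of these 20, 16 had an NC peak within 1 kb of their start site, which was the case for 322 of the 1016 genes in blocks (31.7%) and 5.39% of those outside. Channel and receptor genes of the list that start outside blocks also had one more often than that, in 45 cases (29.2%). Blocks were chosen by NC peaks, so more NC promoter peaks inside than outside were to be found by the choice itself. The promoter peaks with the largest −log10 q were at KCNK9 and KCNK10, which encode potassium channels, with a fold enrichment of 9.01 and 8.33. Then followed GRIK3, a kainate receptor gene (7.39), and GABRB2 and GABRA6, genes of GABA receptor subunits, which share 1 promoter peak (7.99).

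GABRB2 and GABRA6 start in chr5:160000001-161000000 (352 NC starts), and NC peaks covered 21.6% and 19.6% of their length. Higher coverage was found at KCNQ3 (49.3%), a potassium channel gene on chromosome 8, and at GRIA1 (43.97%), the gene of an AMPA-type glutamate receptor subunit. KCNQ3 and GRIA1 were chosen after their values were seen. The calcium channel subunit genes CACNG7, CACNG8 and CACNG6 were at the other end, with peaks over 4.83%, 0% and 0% of their length. Their block on chromosome 19 had 31 protein-coding start sites.

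Olfactory receptor genes, known for their expression in the nose, had the largest share in blocks of the 8 gene lists counted. Of 398 genes, 96 (24.1%) started in a block, and 48 of these had an NC peak at their promoter, as did 49 (16.2%) of those outside. They sat in 9 blocks, with 30 in chr11:5000001-6000000 (145 NC starts), 22 in chr11:56000001-57000000 (129) and 13 in chr1:158000001-159000000 (144). The promoter peaks with the largest −log10 q were at OR10H1 (4.49), OR10H5 (4.73), OR52P1 (5.15), OR9A2 (4.26) and OR52N2 (4.74), where the value is the fold enrichment. Neighbouring receptor genes are near copies of each other, so reads may have been shared between them. Of these 5 genes, OR10H1, OR10H5, OR9A2 and OR52N2 had a promoter peak in all 3 H3K27me3 lists, and OR52P1 had none in ΔLINC00641. The 5 were picked for strong NC peaks and do not stand for the family. Among the 48 receptor genes in blocks with an NC promoter peak, 26 also carried a promoter peak upon ΔLINC00641 and 31 upon ΔSETD5-AS1. For all 322 block genes with an NC promoter peak, these numbers were 266 and 265. Whether or not NC had a peak, 37 and 46 of the 96 receptor genes carried one upon these knockdowns.

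Developmental regulators, the best known targets of Polycomb, had a share in blocks near that of all protein-coding genes. Of 171 developmental transcription factor genes, 6 (3.51%) started in a block, against 5.28% of all protein-coding genes, namely PAX8, SOX14, IRX1, IRX2, LHX5 and TBX5. LHX5 and SOX14 had an NC promoter peak, with a fold enrichment of 6.09 and 3.44, and peaks covered 78.0% of LHX5. IRX1 and IRX2 had no NC peak in their bodies although their blocks belong to the longest run, and the block of IRX2, chr5:2000001-3000000, held 348 starts. Of 49 genes of WNT, FGF and BMP signals, FGF17 alone started in a block, with no peak.

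Zinc finger genes were in blocks in 22 of 553 cases (3.98%), and 3 of these, ZSCAN5C, ZNF423 and ZNF667, had an NC promoter peak, with a fold enrichment of 3.72, 2.84 and 3.50. No clustered protocadherin gene (of 53) and no keratin or keratin-associated gene (of 149) started in a block. Ribosomal protein genes, which are active in all cells, were in blocks in 5 of 81 cases (6.17%). Those 5, RPS27, RPS7, RPS15A, RPS9 and RPL28, had no NC peak at the promoter or in the body.

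A few blocks were rich in genes. There were 14 blocks with 16 or more start sites, looked at after the counts were seen. Those with the most were chr19:55000001-56000000 with 48 start sites, among them 7 KIR receptor genes of natural killer cells, and chr11:5000001-6000000 with 45. Next were chr1:153000001-154000000 with 42 and chr1:152000001-153000000 with 36, of which 19 were LCE genes of the skin barrier. In chr1:13000001-14000000, 16 of 20 were PRAMEF genes, and in chr19:56000001-57000000, 11 of 31 were ZNF genes beside 6 NLRP genes. In chr1:152000001-153000000, 25 of 36 promoters held an NC peak and peaks covered 17.9% of the block.

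The peaks of the blocks were broader than those elsewhere and rarely at promoters. Their median width was 552 bp, against 455 bp for the other autosomal NC peaks, and 6.15% and 3.64% were 2 kb or more. The median fold enrichment was 3.42 and 3.16. Only 0.634% of block peaks had a summit at a promoter of a protein-coding gene, against 3.97% elsewhere, 33.8% were in a gene body (28.0% elsewhere) and 65.6% lay outside protein-coding genes (68.0%). An input more than 5 times as high as the genome-wide level was found at 0.0224% of block peaks and 1.06% of the others. Where the input was at the genome-wide level, as for 47.8% of block peaks and 40.4% of the others, the peak was called against that level alone.

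To see how the blocks fared upon depletion of the lncRNAs, peak starts were counted in the knockdown lists over the same bins. In ΔLINC00641 the blocks held 39724 peaks, 0.810 times the NC number (counting interval 0.799 to 0.820), and on 22 of 22 autosomes the ratio was below 1, from 0.50 to 0.989. The other autosomal bins together gave 0.775. In ΔSETD5-AS1 the blocks held 44600 peaks, a ratio of 0.909 (0.897 to 0.921) that was below 1 on 19 of 22 autosomes, and the other bins gave 0.986. Since the blocks were chosen by a high NC count, the ratio was also taken over bins chosen by 100 or more starts in the knockdown list. It was 0.833 in 186 such bins for ΔLINC00641 and 0.917 in 217 bins for ΔSETD5-AS1. With equal numbers of the strongest peaks in both lists, the ratios in the blocks were 0.939 and 0.942.

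Block by block, the median ratio of ΔLINC00641 to NC was 0.816, with quartiles of 0.703 and 0.909. The ratio was below 1 in 211 blocks, above 1 in 15 and equal to 1 in 6. A decrease of at least 1.5 times was seen in 51 blocks (22.0%), while over all 594 autosomal bins with 20 or more NC starts it was seen in 34.0%. These 594 bins include the blocks and were themselves chosen by NC starts, so the shares are set side by side only. The median ratio of the 362 bins of that kind outside the blocks was 0.727. No block was higher by 1.5 times, against 0.673% of the 594 bins. For ΔSETD5-AS1 the median ratio was 0.915, with 165 blocks below 1 and 66 above, and that of the 362 bins outside the blocks was 0.937. A decrease of 1.5 times was found in 12 blocks (5.17%), against 11.1% of the 594 bins, and an increase of that size in none, against 1.18%. The bins outside the blocks had fewer starts, and the part of counting error in these shares was not tested.

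**Figure D4:**
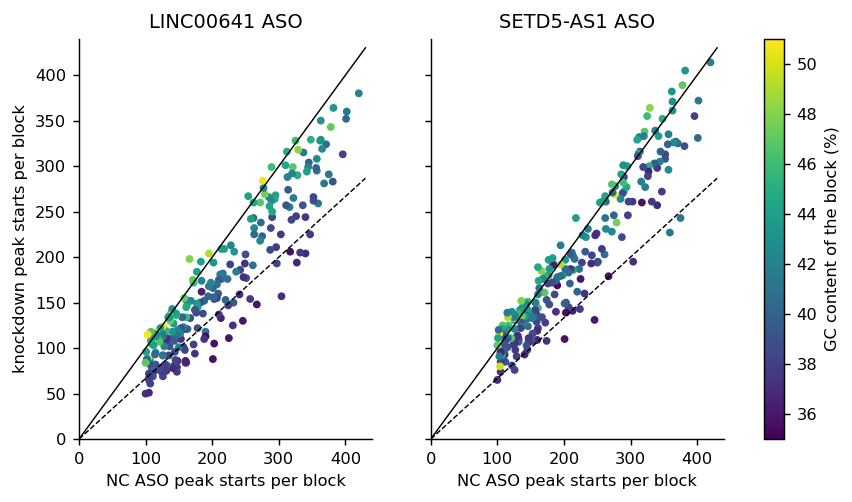
H3K27me3 peak starts of each of the 232 dense blocks in the NC list (x axis) and in a knockdown list (y axis), ΔLINC00641 on the left and ΔSETD5-AS1 on the right, with the colour giving GC content (%). The solid line marks equal numbers and the dashed line a decrease of 1.5 times, which 51 blocks reach in ΔLINC00641 and 12 in ΔSETD5-AS1.

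The blocks with the lowest ratio in ΔLINC00641 were chr17:51000001-52000000, which fell from 201 starts in NC to 88 (0.438), chr4:171000001-172000000, from 105 to 51 (0.486), and chr7:145000001-146000000, from 225 to 111 (0.493). The first holds KIF2B, a kinesin gene, as its single protein-coding gene, the next AADAT, and the last the start of CNTNAP2, a long gene of neuronal adhesion. In ΔSETD5-AS1 the same 3 blocks had 110, 95 and 176 starts. The lowest ratios there were chr2:116000001-117000000, which DPP10 enters, from 246 to 131 (0.533), chr17:51000001-52000000 again (0.547) and chr20:53000001-54000000 with DOK5, from 126 to 76 (0.603).

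At the other end, chr1:37000001-38000000 with GRIK3 went from 166 starts in NC to 198 in ΔLINC00641 and 185 in ΔSETD5-AS1. In chr7:157000001-158000000, which PTPRN2 overlaps, the counts were 103, 115 and 116, and in chr2:3000001-4000000 they were 108, 118 and 125. The highest ratios in ΔSETD5-AS1 were chr17:54000001-55000000 (115 to 139), chr2:230000001-231000000 (102 to 120) and chr22:26000001-27000000 (161 to 189), where ΔLINC00641 had 95, 88 and 145. The 10 densest blocks were picked by NC starts, so lower counts in another list were in part to be found by the choice itself. Over all 232 blocks, 211 were below 1 in ΔLINC00641 and 165 in ΔSETD5-AS1. Among the 10 densest blocks, ΔLINC00641 was lower in all 10, with ratios from 0.743 at CTNND2 to 0.953 at FAM135B and COL22A1. ΔSETD5-AS1 was lower in 8, from 0.648 in the RBFOX1 block, which went from 375 starts to 243, and was higher in 2, with 405 for 382 starts at FAM135B and 389 for 378 at chr10:132000001-133000000.

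The ratio moved with GC content. With the blocks in 5 groups of equal size from low to high GC content, the ratio of ΔLINC00641 to NC was 0.621, 0.737, 0.817, 0.905 and 0.957, and that of ΔSETD5-AS1 was 0.775, 0.868, 0.895, 0.985 and 1.02. Of the 51 blocks lower by 1.5 times in ΔLINC00641, 35 were in the group of lowest GC content and 14 in the next. The blocks with the lowest ratios in ΔLINC00641 had a GC content of 35.7%, 36.6% and 35.9%, and those with the highest 48.0%, 50.8% and 46.7%. In ΔSETD5-AS1 the lowest had 36.0%, 35.7% and 38.3%, while the highest had 41.6%, 40.7% and 44.8%, which reaches down to the median of all blocks. From the lowest to the highest GC group, the share of NC peaks whose local input was at the genome-wide level fell from 65.9% to 26.0%, and the median distance to a chromosome end went from 25.03 to 5.86 Mb. The part of base composition, input and position in these ratios was not tested.

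At like GC content the blocks and the other bins with 20 or more NC starts were set side by side. For ΔLINC00641 the other bins gave 0.547, 0.651, 0.734, 0.801 and 0.934 in the same 5 ranges, which is lower than the blocks in each of them. For ΔSETD5-AS1 they gave 0.783, 0.902, 0.919, 1.02 and 1.01, higher than the blocks in the first 4 ranges and lower in the last.

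**Figure D5:**
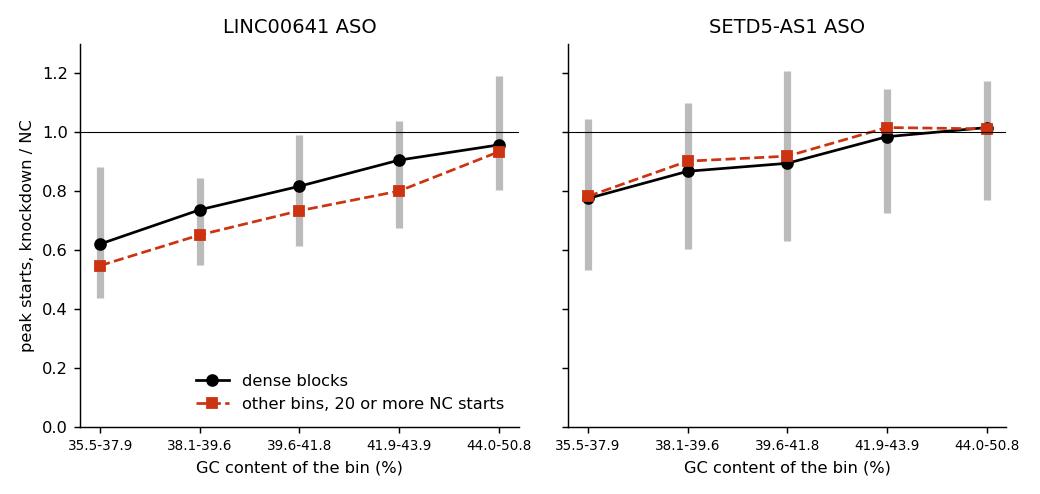
Ratio of H3K27me3 peak starts in a knockdown list to NC, summed over dense blocks (circles) and over other bins with 20 or more NC starts (squares), for 5 ranges of GC content (%), ΔLINC00641 left and ΔSETD5-AS1 right. Grey bars span the lowest to the highest single block, and for ΔLINC00641 the summed ratio of blocks goes from 0.621 to 0.957.

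NC peaks in blocks were overlapped in the knockdown lists more often than NC peaks in other bins. An NC peak counted as kept when a peak of the knockdown list overlapped it by at least 1 bp. In the blocks 56.9% of NC peaks (56.5 to 57.4%) were kept in ΔLINC00641 and 59.9% (59.5 to 60.4%) in ΔSETD5-AS1, against 41.1% and 45.0% in the other autosomal bins. When peaks were divided into 10 groups by −log10 q, the kept share was higher in blocks in 10 of 10 groups for both lists, and the mean over groups was 55.9% in blocks and 43.5% elsewhere for ΔLINC00641, and 58.9% and 47.2% for ΔSETD5-AS1. Peaks in blocks also have more partners within reach. A window of 552 bp, the median peak width, would touch a ΔLINC00641 peak at a mean of 26.9% of positions in blocks, with each block weighted by its NC peaks, and the corresponding share elsewhere, with 455 bp, was 3.90%. The groups of −log10 q do not take this out, and how much of the difference in kept peaks it makes was not tested.

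Both knockdown lists overlapped 21752 of the 49065 NC peaks in blocks (44.3%), ΔLINC00641 alone 6180 (12.6%), ΔSETD5-AS1 alone 7662 (15.6%) and neither list 13471 (27.5%). The knockdown lists share the NC list, so these numbers are not independent of each other. Peaks with a partner in both lists were broader and stronger than those with none, with a median width of 869 and 386 bp and a median fold enrichment of 3.71 and 3.18. Their summits were also richer in GC, with medians of 50% and 44%, and had a median of 2 and 1 CpGs in 150 bases. Conversely, 28.4% of the ΔLINC00641 peaks in blocks and 31.8% of the ΔSETD5-AS1 peaks had no NC partner, against 46.6% and 53.6% in the other bins. Blocks were chosen for many NC peaks, so fewer peaks without an NC partner were to be found there by the choice itself.

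Where a peak was present in both lists, its height showed little shift in common, while single peaks moved both ways. Only peaks called in both lists could be paired, which leaves out many of the 49065 NC peaks in blocks. Peaks that fell below the calling limit are among those left out. A small median shift is thus in part set by this choice and does not show that height was unchanged. At the 19141 peaks in blocks that paired 1 to 1 between NC and ΔLINC00641, the median log2 ratio of fold enrichment was 0.0018, with an SD of 0.037 over the medians of 22 chromosomes, and 6 of these medians were negative. When both lists were cut to the same number of strongest peaks, the median was −0.051, so no direction held. The quartiles over pairs were −0.26 and 0.26, and 13.6% of pairs differed by at least 1.5 times. For ΔSETD5-AS1 the median over 20065 pairs was −0.08 (SD over chromosomes 0.021), and all 22 chromosome medians were negative. The quartiles over pairs were −0.33 and 0.18, and 13.2% differed by at least 1.5 times. The other bins gave 0.02 and −0.07. Fold enrichment depends on depth and on the input, and ΔSETD5-AS1 had the deepest list.

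The knockdown lists drew nearly the same blocks as NC. In ΔLINC00641, 186 autosomal bins had 100 or more starts and 185 of them were dense blocks, which is 99.5% of that list's bins and 79.7% of the blocks. In ΔSETD5-AS1 it was 213 of 217, which is 98.2% and 91.8%. The number of bins dense in all 3 lists was 185. Of the 322 block genes with an NC promoter peak, ΔLINC00641 had one at 266 and ΔSETD5-AS1 at 265. No value for genes outside the blocks is set beside these counts, so they are not read as particular to blocks.

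The length under peaks was lower in both knockdown lists for most of the named genes, but not for all. Most of these genes were named for their NC peaks, so lower values in other lists were in part to be found by the choice itself. Over all blocks, peaks covered 39.66 Mb in NC, 31.46 Mb in ΔLINC00641 and 33.81 Mb in ΔSETD5-AS1. NC peaks covered 52.0% of DPP6, and peaks of ΔLINC00641 and ΔSETD5-AS1 covered 44.4% and 46.1%. For CTNND2 the 3 values were 29.4%, 22.5% and 25.2%, for TENM2 35.2%, 28.8% and 31.6%, and for ADCY2 41.2%, 29.6% and 32.0%. RBFOX1 went from 34.5% to 28.2% and 23.6%. Values at COL22A1 were 44.2%, 46.3% and 46.7%, so it was covered no less in either knockdown. GABRA6, with 19.6% in NC, had 9.09% and 11.3%, and GABRB2, with 21.6%, had 13.1% and 15.2%, while GRIK3, with 23.2%, had 23.9% and 26.9%, and KCNK9, with 22.3%, had 28.0% and 24.03%. The promoter peak of KCNK9 had a fold enrichment of 9.01, 8.29 and 4.02 in the same order. That of LHX5 was 6.09, 7.63 and 4.48.

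The blocks held more H3K9me3 peaks than other bins. The median block held 35 H3K9me3 NC peak starts, from 3 to 183, against 21 in the other bins with at least 0.5 Mb of known sequence, and 189 blocks (81.5%) lay above the median of all such bins. There were 15 blocks with 100 or more H3K9me3 starts, 6.47% of blocks against 1.76% of all autosomal bins. These counts include weak peaks, and a −log10 q of at least 5 was reached by 26.4% of H3K9me3 NC peaks in blocks and 38.2% elsewhere. The most were found in chr7:153000001-154000000 at DPP6 (183), chr4:190000001-191000000 near the end of chromosome 4, with FRG1 (177), and chr5:2000001-3000000 with IRX2 (152). The fewest were in chr13:102000001-103000000 with FGF14 (3), chr14:87000001-88000000, which holds no protein-coding start site (8), and chr16:7000001-8000000 with the end of RBFOX1 (9), where H3K27me3 had 359.

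Most H3K27me3 NC peaks did not overlap an H3K9me3 peak. In blocks, 9.48% (9.22 to 9.74%) overlapped an H3K9me3 NC peak, against 10.8% in the other autosomal bins. Of the H3K27me3 base pairs, 4.99% and 7.76% were shared. H3K9me3 peaks covered a mean of 2.55% of a block and 1.76% of another bin, both below these shares. The shared length in blocks was 1.98 Mb, for 39.66 Mb under H3K27me3 peaks and 5.89 Mb under H3K9me3 peaks. Whether the marks overlap more than their coverage gives was not tested. H3K9me3 peaks in blocks were weaker than elsewhere, with a median width of 437 against 484 bp and a median fold enrichment of 3.06 against 3.21. The median H3K9me3 count rose with GC content of the blocks, from 25 in the lowest of the 5 groups to 52 in the highest.

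Upon depletion of LINC00662, the blocks held 8764 H3K9me3 peaks for 10246 in NC, a ratio of 0.855 (0.831 to 0.880), below 1 on 18 of 22 autosomes. The other autosomal bins gave 0.702. Of the 200 blocks with 20 or more H3K9me3 NC starts, the median ratio was 0.808, with 161 below 1 and 34 above, and 44 (22.0%) were lower by at least 1.5 times, against 51.3% of the 1569 autosomal bins with 20 or more. None was higher by that factor, against 0.319%. The direction depended on the choice of peaks. With equal numbers of the strongest peaks in both lists, the ratio in the blocks was 1.34. Kept H3K9me3 peaks were 34.6% in blocks and 38.5% elsewhere, but the means over 10 groups of −log10 q were 38.4% and 37.9%, with blocks higher in 5 of 10 groups, so no difference was seen at like strength. Further, 58.2% and 42.2% of the ΔLINC00662 peaks had no NC partner. The genome-wide level of the ΔLINC00662 list, 3.50, was the lowest of the 5, and its part in these counts was not tested.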

How the data were processed

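The 30 samples were grouped by title. Of their files, the 5 peak lists were used. To make them, the authors removed adapters (Cutadapt 3.3), mapped to hg19 (Bowtie2 2.4.2), dropped duplicates (GATK MarkDuplicates), pooled the 3 replicates and ran MACS2 2.2.7.1 on paired ends with the pooled input as control. The authors deposited for each peak a ratio, its fold enrichment over input, with the −log10 p-value and −log10 q-value. Input samples enter only through these values. Merging before calling means that no value has an error between replicates.

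Peaks were assigned to bins by their start. Fragments at the summit and the local input were solved from fold enrichment and p-value, which gave a whole number for at least 99.86% of peaks in each list (tolerance 0.1% of the p-value). Genes were those of GENCODE 44 lifted to GRCh37, a promoter was within 1 kb of a start site, and properties of bins were computed where at least 0.5 Mb of sequence was known. Gene families were taken by the prefix of the symbol. Ratios per bin needed 20 NC starts. Blocks named were the 10 with the most starts, those at the limit, and those with the lowest and highest ratios, H3K9me3 counts and GC content. Genes named were up to 3 per dense block with the most base pairs covered, and up to 5 per family by −log10 q of the promoter peak. The strongest peak of the block with the lowest GC content lies over an exon and its sequence is not shown, and none is shown for chromosome 8. Some items are not reported here. The blocks, lists and alternatives were chosen with earlier results of these data known. The software was Python 3.11.15 with numpy 2.4.6, pandas 2.3.3, scipy 1.17.1 and pysam 0.24.0, and the functions were tested on simulated data.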

Additional observations from a re-analysis of the deposited data

How the results depend on the processing

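Each of 13 results was recomputed under its alternatives, 58 in all. For 28 of these the count stayed within 1.5 times, the share or ratio within its counting interval, or the median within 1 SD over chromosomes. Another 28 moved beyond this without changing sides, and 2 changed sides. The number of blocks was 41 where only peaks reaching a −log10 q of 5 were counted and 141 where peaks within 1 kb were merged, all of them among the 232. The share of the counted autosomal NC peaks that lay in these 41 and 141 blocks was 26.5% and 44.4%. These are not shares in the 232 blocks, where 29.3% of NC peaks reached a −log10 q of 5, against 22.5% of the other autosomal NC peaks. With blocks chosen at a minimum of 80 starts the share was 72.8%, with 120 it was 61.6% and per Mb of known sequence 67.0%. The medians of GC content, gene number and distance to the end stayed within their spread with shifted bins, a minimum of 80 or 120 starts and no input-rich peaks, and were not recomputed for the other choices.

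The ratio of ΔLINC00641 to NC in blocks was 0.910 at a −log10 q of at least 5, 0.939 with equal numbers of the strongest peaks, 0.887 with merged peaks and 0.833 with blocks chosen on the knockdown list. The share kept was 48.6%, 60.3%, 58.3% and 59.5% under these, and 38.1% when an overlap of 50% was asked for. For ΔSETD5-AS1 the ratio was 0.933, 0.942 and 0.978 under the first 3, and the share kept 46.6%, 60.4%, 61.8%, then 60.9% with its own blocks and 39.8% at an overlap of 50%. The median log2 ratio of fold enrichment changed sign for ΔLINC00641 with equal numbers (−0.051), and for ΔSETD5-AS1 it was −0.12 for fragments over the genome-wide level. For H3K9me3, the median per block was 9 at a −log10 q of at least 5, and that of ΔLINC00662 over NC was a ratio of 0.788 at that limit, 0.884 with merged peaks and 1.34 with equal numbers, where it changed sides. The causes were not tested.

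No paired analysis was possible because each list pools its 3 replicates. For the same reason no replicate could be left out. The median summit of about 18 fragments limits what a single peak can show, and counting intervals take peaks as independent.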
